A study of Bos taurus with 6 samples.

Results

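The genes described here take part in the oxidation of fatty acids and of branched-chain amino acids. They were chosen by annotation: a gene was a member where the deposited expression table placed it in the KEGG pathway of fatty acid degradation or in that of valine, leucine and isoleucine degradation, and in neither glycolysis nor the citrate cycle. HMGCS1 was left out by name. Of the 17663 genes in the table, 53 were members, with 16 in the fatty acid pathway only, 25 in the branched-chain pathway only and 12 in both. Each of the 53 symbols matched a RefSeq gene symbol of the cattle assembly ARS-UCD2.0, which was used for names only.

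The cells were bovine fetal fibroblasts (bEFs), connective tissue cells in primary culture from cattle fetuses aged 50 to 60 days. The 3 FT fetuses were transgenic for fat-1, a desaturase gene whose product turns n-6 into n-3 polyunsaturated fatty acids, and the 3 WT fetuses were Luxi cattle without the transgene. The sample titles give only a replicate number, but the library names FT_1 to FT_3 and WT_1 to WT_3 match the fetus names in the methods. The libraries, of poly(A) RNA, were therefore read as 1 per fetus. On that reading p-values measure the spread between fetuses, with n = 3 in each group. The breed of the FT fetuses, the promoter of the transgene and whether the FT fetuses shared 1 transgenic line are not given in the sources used here, so any such difference and the genotype cannot be told apart.

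Fatty acids are activated to acyl-CoA by synthetases, carried into mitochondria as carnitine esters and shortened by repeated rounds of dehydrogenation, hydration, a further dehydrogenation and thiolysis. Leucine, isoleucine and valine are transaminated, decarboxylated by a shared keto acid dehydrogenase and then broken down by reactions that resemble fatty acid oxidation, and some enzymes serve both routes. Both routes are most prominent in tissues such as liver, heart and muscle.

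Library totals were 63366834, 48167642 and 54204446 counts for FT_1 to FT_3, and 69777641, 51310741 and 54271927 counts for WT_1 to WT_3. Members took 0.316%, 0.237% and 0.233% of these counts in the FT libraries and 0.381%, 0.372% and 0.381% in the WT libraries. All 3 FT libraries were below all 3 WT libraries. FT_1 held the highest FT share because of AOX1, an aldehyde oxidase gene. Without AOX1, a choice made after seeing the data, the share was 0.182%, 0.197% and 0.196% in FT_1 to FT_3 and 0.332%, 0.331% and 0.328% in WT_1 to WT_3.

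FT_1 stood apart from FT_2 and FT_3. The biological coefficient of variation, which measures how much expression differs between libraries after counting noise is taken off, was 56.9% for FT_1 with FT_2 and 57.6% for FT_1 with FT_3, but 8.23% for FT_2 with FT_3 and 9.99 to 13.4% for pairs of WT libraries. FN1, the fibronectin gene, took 7.01%, 1.66% and 1.71% of the FT counts and 0.264%, 0.222% and 0.283% of the WT counts. FT_1 also had the highest levels of several cell type markers that were higher in FT_2 and FT_3 than in WT cells too. The 7 epithelial markers, all in the table, summed in FPKM (fragments scaled by gene length and library total) to 436, 16.1 and 15.8 for FT_1 to FT_3 and to 10.2, 7.92 and 14.2 for WT_1 to WT_3. KRT5, a keratin gene and the most abundant of them in FT_1, stood at 172, 2.57 and 1.63 in FT cells and was listed at 0 in all 3 WT libraries. CDH1, the most abundant in the other 5 libraries, stood at 36.3, 7.11 and 8.41 in FT cells and at 10.03, 7.83 and 13.9 in WT cells, and EPCAM was listed at 0 in all libraries but FT_1, where it was at 0.57. CLDN4 rose, with 3.65, 3.39 and 3.82 in FT cells and 0.20, 0.09 and 0.33 in WT cells (edgeR adjusted p = 0.00184). KRT5, KRT14, KRT8 and KRT18 were not called with all libraries and rose without FT_1 (adjusted p = 3.40e-06 to 0.00109). Of 7 mesothelial markers, 5 were in the table and summed to 215, 45.1 and 46.3 for FT_1 to FT_3 and to 2.35, 3.51 and 3.34 for WT_1 to WT_3. MSLN was the most abundant of these and rose (edgeR), whereas WT1 was at or under an FPKM of 0.1 throughout.

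The 10 fibroblast markers were found in every library. They summed to an FPKM of 6828, 17050 and 16780 for FT_1 to FT_3 and of 17820, 17270 and 17360 for WT_1 to WT_3. VIM was the most abundant in FT_3 and in the WT libraries, and DCN in FT_1 and FT_2. PDGFRA rose and the other 9 were not called (edgeR), while without FT_1 COL1A1 (adjusted p = 0.000326), DCN (1.61e-06), LUM (1.91e-07) and PDGFRB (3.66e-06) rose too and VIM fell (1.06e-05). Of 9 adipocyte markers, 8 were in the table and summed to 3.24, 19.1 and 19.8 in FT cells and to 153, 139 and 156 in WT cells. FABP4 made up most of the WT sum and fell, as did CIDEC (edgeR), and the FABP4 call was lost without FT_2 (adjusted p = 0.0536), WT_1 (0.0594), WT_2 (0.0594) or WT_3 (0.0576). LEP rose (adjusted p = 0.0390), with 0.03, 4.91 and 4.45 in FT cells and 0.09, 0.07 and 0.02 in WT cells, where FT_1 lay within the WT range. The LEP call was kept without FT_1 and lost without any other library (0.0828 to 0.132). LPL, the most abundant in FT cells at 1.47, 8.04 and 7.81, was at 8.42, 5.99 and 8.33 in WT cells and was not called. ADIPOQ was listed at 0 in FT cells and at no more than 0.28 in WT cells. Of 7 hepatocyte markers, 5 were in the table, with sums of 8.22, 22.8 and 20.3 in FT cells and of 131, 116 and 138 in WT cells, led by TTR, while ALB and TF were at or under 0.1. TTR fell (edgeR adjusted p = 0.00831), and APOA1 fell without FT_1 (3.23e-05).

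The remaining marker lists were low. Muscle markers, 6 of 9 in the table, summed to 5.80, 4.64 and 3.82 in FT cells and to 1.43, 1.42 and 2.10 in WT cells, with ACTA1 and CKM at or under 0.1. DES led in FT cells and rose, and MYF5 led in WT cells and was not called, but fell without FT_1 (edgeR adjusted p = 0.0129). MYH3 fell, a call lost without FT_3 (adjusted p = 0.106), WT_1 (0.126), WT_2 (0.101) or WT_3 (0.150). Endothelial markers, 7 of 7, led by PECAM1 in WT cells and by VWF in FT_2 and FT_3, summed to 1.08, 0.47 and 0.53 and to 1.56, 1.0 and 1.2, with CDH5, KDR, CLDN5 and EMCN at or under 0.1. PECAM1 was not called with all libraries and fell without FT_1 (edgeR adjusted p = 0.000451). Blood and macrophage markers, 5 of 8 and led by CD14, summed to 4.25, 4.12 and 3.56 and to 8.06, 6.72 and 7.77, with HBA at or under 0.1. CD68 fell (edgeR adjusted p = 0.0185), a call lost without FT_2 (0.0596), WT_1 (0.0768), WT_2 (0.0638) or WT_3 (0.0554), and CD14 fell without FT_1 (0.0115). Chondrocyte markers, 5 of 6, led by SOX9 in FT cells and by ACAN in WT cells, summed to 2.31, 0.31 and 0.43 and to 0.84, 1.06 and 0.93, with COL2A1, MATN1 and COMP at or under 0.1. ACAN fell (edgeR adjusted p = 0.0395), a call lost without FT_2 (0.0891), WT_1 (0.108), WT_2 (0.115) or WT_3 (0.0931). The methods state that organs and bones were taken out of the fetuses ahead of culture. The part of any of these marker genes in the result was not tested, and in such bulk libraries fewer cells of a type and less RNA per cell cannot be told apart. Leaving out each library was planned, and the use of the fit without FT_1 as a second reading beside that of all 6 libraries was chosen after seeing the data.

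FT cells were compared with WT cells to ask how the RNA of these oxidation genes differed with the transgene. Most members that changed were lower in FT cells. edgeR tested 50 of the 53 members among 13482 genes, and at an adjusted p under 0.05, 24 fell (48.0%), 1 rose and 25 were not called. Of all genes tested, 18.9% fell, 20.1% rose and 39.0% were called in either direction. Without FT_1, 33 members fell and 4 rose, where 31.5% of all genes fell, 30.6% rose and 62.1% were called. The 25 members called with 6 libraries were all called without FT_1 too, and 12 more were gained. Leaving out any other library lowered the counts among the members and among all genes alike. Members that fell numbered 15 without WT_1, 16 without WT_2, 17 without WT_3, 19 without FT_3 and 21 without FT_2, beside 11.1%, 11.3%, 12.6%, 14.5% and 14.2% of all genes. A filter on low counts left out ACSBG1, AOX2 and AOX4.

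At the threshold of the study's methods, an unadjusted p below 0.05 with at least a 2-fold change, 7 members were lower and 1, CPT1B, was higher in edgeR, beside 8.96% and 10.2% of all genes. In limma on log2(FPKM + 1), 29 of 46 tested members fell and 1 rose at an adjusted p under 0.05, beside 29.2% and 15.0% of all genes and 44.2% in either direction. At the threshold of the methods limma gave 8 lower members, beside 8.38% of all genes lower and 3.77% higher. In FPKM, all FT libraries were below all WT libraries for 34 of the 50 members and above them for 2, ALDH6A1 and ECI1, against 36.9% and 21.8% of all genes tested. In TMM-scaled counts, the scale of the edgeR test, 31 members had all FT libraries below all WT libraries. On that scale 5 had them above, ACSL3, CPT1B, ALDH6A1, ECI1 and ACOX3.

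The median fitted log2 fold change was -0.47 for the members and 0.03 for all genes tested. Relative to the WT mean, the members' median log2 levels of FT_1, FT_2 and FT_3 were -0.62, -0.46 and -0.46, while WT libraries lay between -0.01 and 0.02. Scaling by total counts alone moved the median of all genes to -0.12 and that of the members to -0.62. With it, 37.6% of the calls among all genes were higher in FT cells, against 51.6% with TMM.

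**Figure D1:**
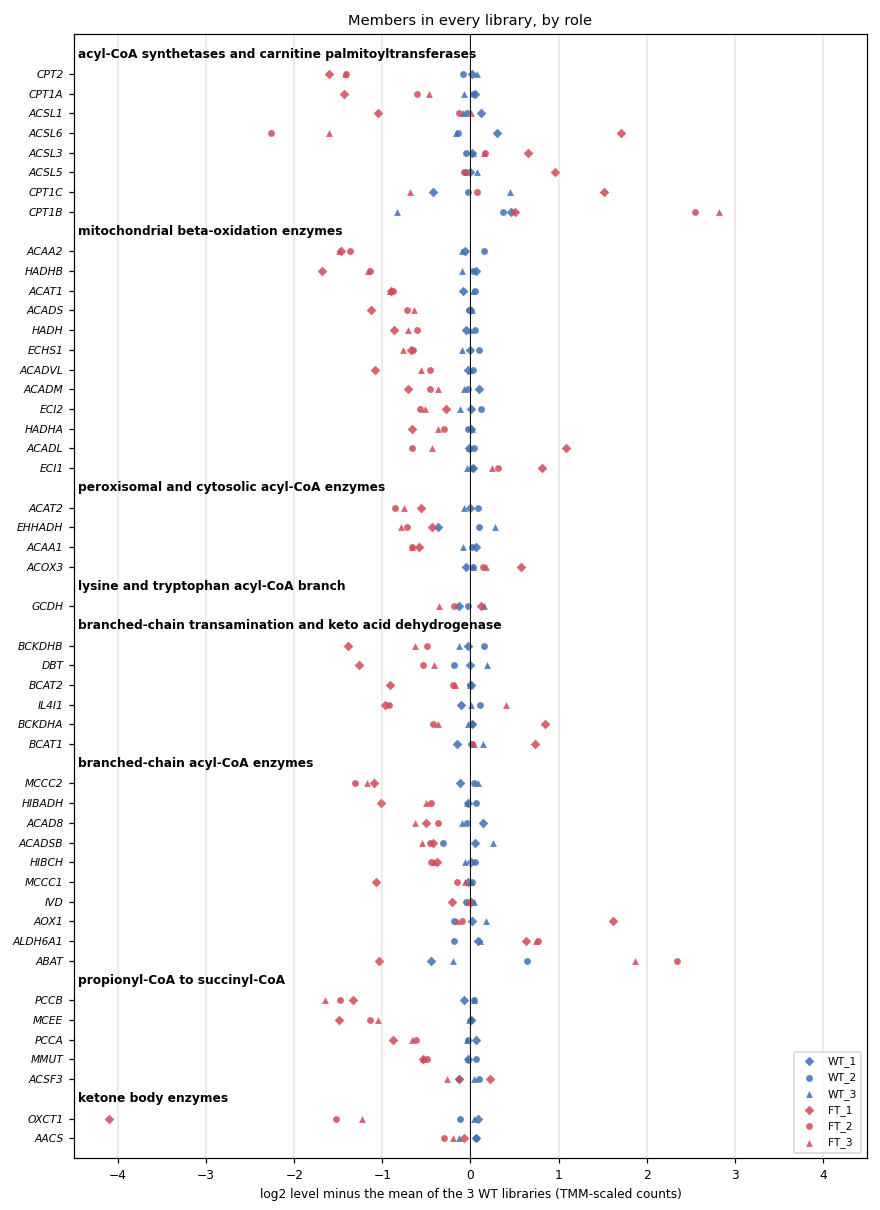
Log2 level of 48 of the 50 tested members in each library, minus the mean of the 3 WT libraries (TMM-scaled counts, x axis), with members grouped by role. Red symbols are FT libraries, blue symbols are WT libraries and diamonds mark replicate 1. Most red symbols lie left of 0, and FT_1 lies apart from FT_2 and FT_3 for OXCT1, AOX1, ACSL6, BCKDHA and ACADL.

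Members annotated to both pathways were called most often. Of these 12, 11 fell, with a median log2 fold change of -0.71, and all 12 fell without FT_1. In FPKM all 12 had every FT value below every WT value, as did 36.9% of all genes tested. Of 23 tested members of the branched-chain pathway only, 9 fell and 1 rose, with a median of -0.41, and without FT_1 14 fell and 2 rose. Of 15 tested members of the fatty acid pathway only, 4 fell and 11 were not called, with a median of 0.22 that was -0.28 without FT_1, -0.26 in limma and 0.08 with total counts. Without FT_1, 7 of these 15 fell and 2 rose. In that group the median levels of FT_1, FT_2 and FT_3 relative to WT were 0.50, -0.19 and -0.35. Of all genes tested, 18.9% fell and 20.1% rose with all 6 libraries, and 31.5% fell and 30.6% rose without FT_1. Whether the pathway groups differ from each other was not tested.

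**Figure D2:**
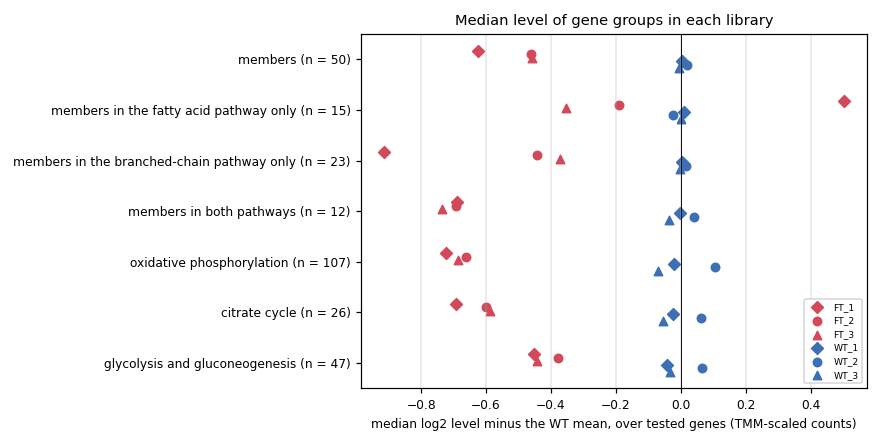
Median log2 level of gene groups in each library, minus the WT mean (TMM-scaled counts, x axis), for the members, their 3 pathway groups and 3 other KEGG pathways, with the number of tested genes. FT libraries are below WT libraries in each group except the fatty acid pathway alone, where FT_1 is at 0.50 and FT_2 and FT_3 are at -0.19 and -0.35.

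Other pathways of energy metabolism were lower in FT cells too. Of 107 tested genes of oxidative phosphorylation, 68 fell and 2 rose, with a median log2 fold change of -0.61, and of 26 genes of the citrate cycle 16 fell, with a median of -0.65. Of 47 genes of glycolysis and gluconeogenesis, 18 fell and 2 rose, with a median of -0.39. Without FT_1, 77 of 108 fell and 10 rose for oxidative phosphorylation, 18 fell and 3 rose for the citrate cycle, and 28 fell and 8 rose for glycolysis and gluconeogenesis. With all 6 libraries the members' share of genes that fell and their median lay between those of these pathways. Among the 8 genes that share an oxidation pathway with glycolysis or the citrate cycle and so were not members, DLD, ALDH2, ADH5 and ALDH9A1 fell, ALDH7A1 and ALDH3A2 were not called, and ADH6 and ADH1C were not tested. The ALDH2 call was lost without WT_1 (edgeR adjusted p = 0.0525) or WT_2 (0.0513), and without FT_1 ALDH7A1 (adjusted p = 0.0429) and ALDH3A2 (0.00397) rose.

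Acyl-CoA synthetases and carnitine palmitoyltransferases start the route. Of 8 tested, CPT2 and CPT1A fell (25.0%) and 6 were not called, where 18.9% of all genes fell. CPT2 (ENSBTAG00000014649, chromosome 3, 93032987 to 93057118 in the table, whose genome build is not named), which re-forms acyl-CoA inside the mitochondrion, had FPKM values of 19.5, 21.9 and 21.5 in FT_1 to FT_3 and of 66.1, 61.5 and 68.5 in WT_1 to WT_3. The FT values were close to each other and far below the WT values. Its log2 fold change was -1.48 (95% interval -1.70 to -1.25, edgeR adjusted p = 0.000532), a 2.79-fold lower level. CPT1A, the outer membrane enzyme that commits fatty acids to oxidation, had 11.4, 19.7 and 21.4 in FT cells and 34.9, 34.4 and 31.8 in WT cells. The groups did not overlap, and FT_1 was the lowest. Its log2 fold change of -0.78 had an edgeR adjusted p of 0.0490, which was 0.000122 without FT_1. The call was lost without FT_2 (adjusted p = 0.0808), WT_1 (0.136), WT_2 (0.133) or WT_3 (0.110).

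CPT1B, the form best known from muscle, was close to the detection limit, with 36, 112 and 150 counts in FT_1 to FT_3 and 42, 29 and 13 counts in WT_1 to WT_3. In these raw counts FT_1 lay within the WT range and FT_2 and FT_3 above it. In TMM-scaled log2 levels relative to the WT mean, FT_1 (0.50) lay just above the WT range (-0.83 to 0.46). The log2 fold change of 2.16 (95% interval 0.44 to 3.88) missed the threshold at an edgeR adjusted p of 0.0539 and was 2.59 without FT_1 (adjusted p = 0.000359). CPT1B overlaps CHKB by 297 bases on the same strand, and how shared reads were counted is not stated, so its value is uncertain. Of the summed FPKM of the 3 CPT1 genes, CPT1A took 90.9%, 95.2% and 95.7% in FT cells and 98.8%, 98.5% and 98.2% in WT cells. The groups did not overlap, and the exact two-sided permutation test gave p = 0.1, the smallest p that 3 against 3 libraries allow.

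The acyl-CoA synthetases showed no common direction. ACSL5 had FPKM values of 52.6, 25.1 and 25.5 in FT_1 to FT_3 and of 29.5, 28.3 and 31.0 in WT_1 to WT_3. In FPKM, FT_1 was above and FT_2 and FT_3 were below all WT libraries. In TMM-scaled log2 levels relative to the WT mean, FT_2 (-0.07) lay just below the WT range (-0.06 to 0.07) and FT_3 (-0.03) inside it. ACSL5 was not called (log2 fold change 0.37, -0.06 without FT_1). Its share of the 4 ACSL genes analysed was 64.4%, 48.8% and 48.5% in FT cells and 48.9 to 51.9% in WT cells (exact two-sided permutation p = 1.0). The ACSL3 share was 26.1%, 28.9% and 27.7% in FT cells and 25.0%, 25.3% and 25.4% in WT cells, without overlap (exact permutation p = 0.1). ACSL3 shares 746 bases with ENSBTAG00000005315 on the other strand, so its count and the ACSL shares are uncertain. That gene had FPKM values of 94.1, 56.6 and 49.7 in FT_1 to FT_3 and of 73.4, 80.7 and 76.7 in WT_1 to WT_3. The ACSL1 share was 7.50%, 22.1% and 23.5% in FT cells and 25.1%, 23.9% and 21.9% in WT cells, overlapping (exact permutation p = 0.3). ACSL6 was at a low level, with 1.63, 0.10 and 0.16 in FT cells and 0.67, 0.50 and 0.48 in WT cells. Its FT_1 value was above the WT range, and FT_2 and FT_3 were below it. With all libraries the log2 fold change was 0.33, but without FT_1 it fell by 1.92 (edgeR adjusted p = 0.000566). ACSL1 had 6.12, 11.4 and 12.3 in FT cells and 15.1, 13.6 and 13.1 in WT cells, without overlap, and its log2 fold change of -0.32 (95% interval -0.99 to 0.34) did not pass the test and was -0.06 without FT_1. ACSL1 overlaps CENPU and PRIMPOL over long stretches and is uncertain for that reason. ACSL3 (log2 fold change 0.34, and 0.16 without FT_1) and CPT1C (0.55, and -0.31 without FT_1) were not called, and ACSBG1 had 0, 4 and 13 counts in FT libraries and was listed at 0 in WT libraries.

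Of the 12 mitochondrial enzymes of beta-oxidation, 10 fell and 2, ACADL and ECI1, were not called, where 18.9% of all genes fell. ACAA2 (ENSBTAG00000002863, chromosome 24, 49442439 to 49478083), a thiolase that releases acetyl-CoA at the end of each round, had FPKM values of 18.9, 19.9 and 18.1 in FT_1 to FT_3 and of 55.3, 64.2 and 53.8 in WT_1 to WT_3. The 3 FT libraries, FT_1 included, were alike and clearly lower. The log2 fold change was -1.45 (95% interval -1.68 to -1.21, edgeR adjusted p = 0.000638). ACAT1, the acetoacetyl-CoA thiolase that also acts on isoleucine and ketone bodies, was the most abundant gene of this role in WT cells, but not in FT cells, where HADHA and ACADVL had higher means. It had 54.9, 54.9 and 52.7 in FT cells and 107, 117 and 115 in WT cells. The gap was large beside the spread within each group, with a log2 fold change of -0.90 (95% interval -1.08 to -0.72, adjusted p = 0.000913).

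**Figure D3:**
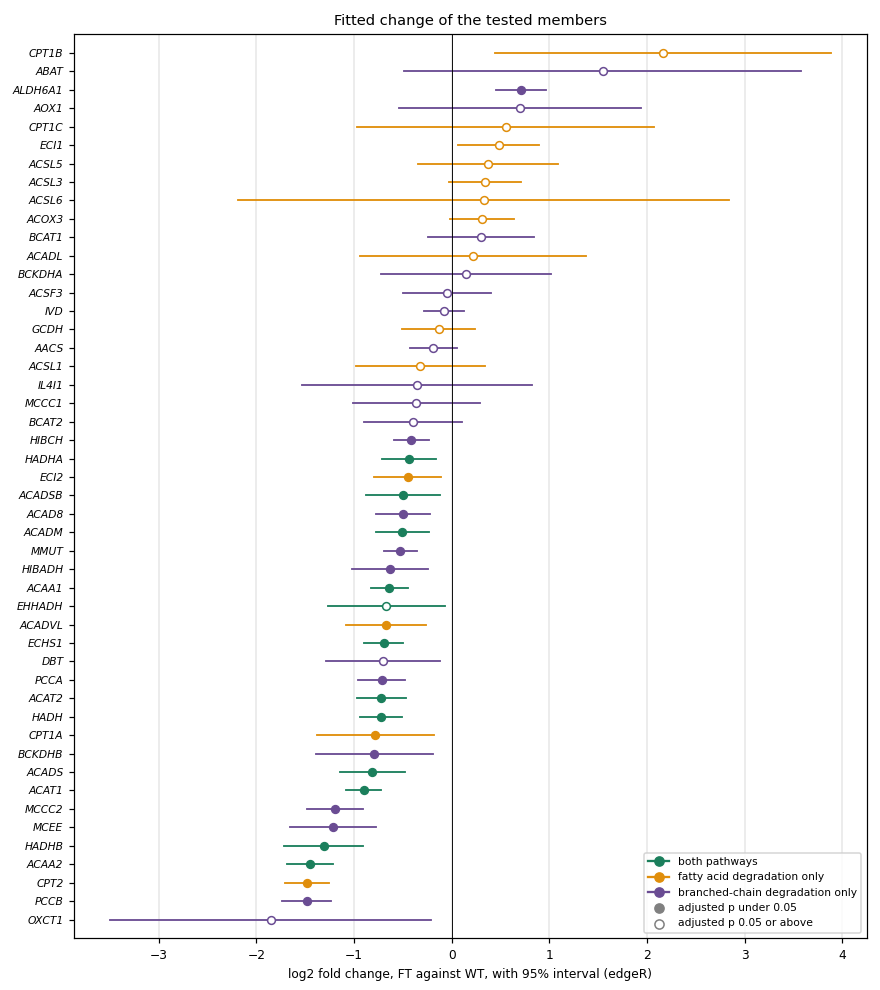
Fitted log2 fold change of 48 of the 50 tested members, FT against WT, with its 95% interval (edgeR, x axis), ordered by size and coloured by pathway. Filled circles passed an adjusted p of 0.05 (24 below 0 and 1 above) and open circles did not.

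The trifunctional protein, which carries out 3 steps for long chains, is built from the products of HADHA and HADHB. HADHB had FPKM values of 15.4, 22.1 and 21.6 in FT_1 to FT_3 and of 57.4, 55.7 and 51.0 in WT_1 to WT_3. It fell by 1.31 on the log2 scale (95% interval -1.71 to -0.91, edgeR adjusted p = 0.00249). HADHA had 50.6, 63.5 and 60.3 in FT cells and 88.6, 86.2 and 88.8 in WT cells, and it fell by 0.44 (adjusted p = 0.0261). Neither gene had overlapping groups. The HADHA call was lost without FT_3 (adjusted p = 0.0560), WT_1 (0.0911), WT_2 (0.0767) or WT_3 (0.0839). The genes lie next to each other on chromosome 11 on opposite strands (HADHB from 73226234 to 73256305 and HADHA from 73256623 to 73298910), 317 bases apart.

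The acyl-CoA dehydrogenases open each round. ACADVL, for very long chains, had FPKM values of 44.3, 66.4 and 61.5 in FT_1 to FT_3 and of 101, 105 and 102 in WT cells, without overlap, and fell by 0.68 on the log2 scale (edgeR adjusted p = 0.0230). Its call was lost without WT_1 (adjusted p = 0.0740), WT_2 (0.0795) or WT_3 (0.0724). ACADS, for short chains, fell by 0.81 (adjusted p = 0.00616). ACADM, for medium chains, fell by 0.50 (adjusted p = 0.0160), a call lost without WT_1 (0.0697) or WT_2 (0.0547). HADH and ECHS1, which carry out the middle steps, fell by 0.73 and by 0.70. ECI2, an isomerase for unsaturated chains, fell by 0.45 (adjusted p = 0.0484), a call kept without FT_1 and lost without any other library (0.0813 to 0.152).

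ACADL, for long chains, had FPKM values of 12.1, 3.50 and 4.07 in FT_1 to FT_3 and of 6.18, 6.42 and 6.14 in WT_1 to WT_3. FT_1 was above and the other FT libraries below the WT range, and the log2 fold change was 0.22 with all libraries and -0.55 without FT_1 (edgeR adjusted p = 0.00363). ECI1, an isomerase like ECI2, had 13.2, 9.14 and 8.56 in FT cells and 8.41, 8.31 and 7.95 in WT cells, without overlap. Its log2 fold change of 0.48 did not pass the test (adjusted p = 0.0684) and was 0.28 without FT_1 (adjusted p = 0.0284).

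Among peroxisomal and cytosolic members, ACAT2 and ACAA1 fell. ACAT2, the cytosolic acetoacetyl-CoA thiolase, had FPKM values of 18.01, 14.4 and 15.3 in FT_1 to FT_3 and of 29.2, 30.9 and 27.6 in WT_1 to WT_3. It fell by 0.72 on the log2 scale (edgeR adjusted p = 0.00363), and it shares 85 bases with TCP1 on the other strand, which leaves its count uncertain. ACAA1, the peroxisomal thiolase, had 9.97, 9.23 and 9.09 in FT cells and 17.1, 16.6 and 15.4 in WT cells, and it fell by 0.64 (adjusted p = 0.00224). The groups were well separated for both genes. EHHADH had a log2 fold change of -0.67 (adjusted p = 0.0772) and of -0.78 without FT_1 (adjusted p = 0.0145). ACOX3 was not called (0.31, and 0.16 without FT_1). GCDH, the glutaryl-CoA dehydrogenase of lysine breakdown, had 6.87, 5.42 and 4.78 in FT cells and 6.35, 6.81 and 7.68 in WT cells, overlapping, with a log2 fold change of -0.13 (95% interval -0.51 to 0.24), and -0.28 without FT_1. GCDH overlaps SYCE2 by 837 bases on the other strand.

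**Figure D4:**
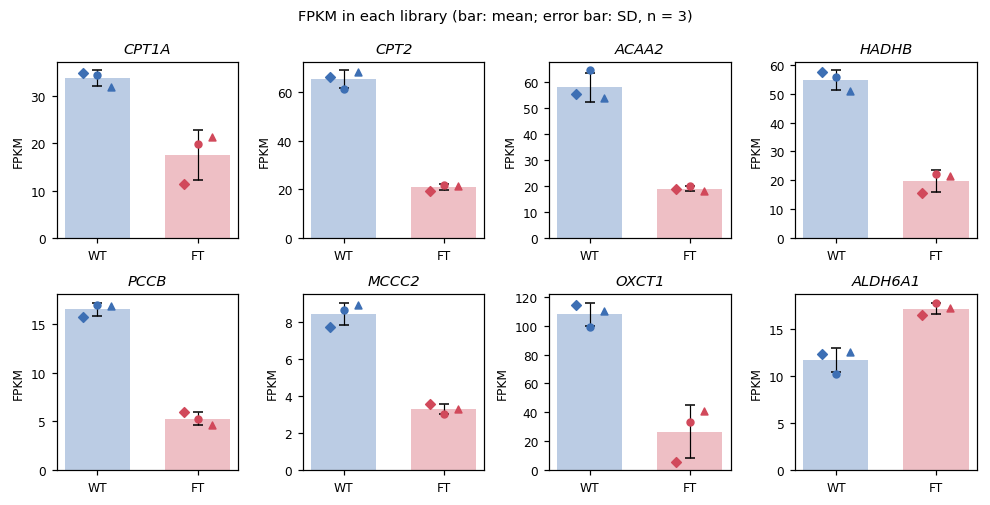
FPKM of 8 members in each library (y axis), with the mean as a bar and the standard deviation as an error bar (n = 3). FT values lie below WT values for CPT1A, CPT2, ACAA2, HADHB, PCCB, MCCC2 and OXCT1 and above them for ALDH6A1, and for OXCT1 the FT_1 value of 5.68 is far below the other FT values.

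Of 6 members for the transamination and decarboxylation of branched-chain amino acids, 1 fell and 5 were not called. That was 16.7%, where 18.9% of all genes fell. The member that fell was BCKDHB, the E1 beta subunit of the keto acid dehydrogenase. It had FPKM values of 4.74, 8.62 and 7.78 in FT_1 to FT_3 and of 13.4, 15.1 and 12.4 in WT_1 to WT_3. The groups did not overlap, and the log2 fold change was -0.79 (95% interval -1.39 to -0.19, edgeR adjusted p = 0.0464). The call was lost without FT_3 (adjusted p = 0.0789), WT_1 (0.1204), WT_2 (0.144) or WT_3 (0.0962). BCKDHA, the E1 alpha subunit and the most abundant of the 6, had 30.3, 12.2 and 12.6 in FT cells and 18.6, 18.6 and 18.01 in WT cells. FT_1 was above and FT_2 and FT_3 below all WT libraries, so the log2 fold change was 0.15 (adjusted p = 0.772) and became -0.40 without FT_1 (adjusted p = 0.00169). BCKDHA overlaps ENSBTAG00000054384 by 19456 bases on the same strand, and the FPKM listed for that gene was 0.02 to 0.07. DBT, the E2 subunit, had a log2 fold change of -0.70 (adjusted p = 0.0600) and of -0.49 without FT_1 (adjusted p = 0.00564). BCAT2 (-0.39), BCAT1 (0.30) and IL4I1 (-0.36) were not called with or without FT_1, and without it their log2 fold changes were -0.19, 0.02 and -0.11. BCAT1 made up 61.8%, 37.3% and 37.5% of the FPKM of BCAT1 and BCAT2 in FT cells and 31.7%, 34.2% and 36.4% in WT cells (exact two-sided permutation p = 0.1). The difference of 11.5 percentage points between the means was 3.37 without FT_1.

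The branched acyl-CoA enzymes held the 1 member that rose. ALDH6A1 (ENSBTAG00000018469, chromosome 10, 85428884 to 85447592), the methylmalonate semialdehyde dehydrogenase of valine breakdown, had FPKM values of 16.6, 17.9 and 17.3 in FT_1 to FT_3 and of 12.4, 10.3 and 12.6 in WT_1 to WT_3. All FT values were above all WT values. Its log2 fold change was 0.71 (95% interval 0.45 to 0.97, edgeR adjusted p = 0.00408), a 1.64-fold higher level. Of the 10 members of this role, 5 fell, where 18.9% of all genes fell. MCCC2, a subunit of the carboxylase of leucine breakdown, had 3.60, 3.03 and 3.29 in FT cells and 7.77, 8.66 and 8.95 in WT cells, without overlap, and fell by 1.19 on the log2 scale (adjusted p = 0.00131). HIBCH, which acts upstream of ALDH6A1, had 12.9, 12.1 and 12.2 in FT cells and 18.6, 19.0 and 17.6 in WT cells, also without overlap, and fell by 0.41 (adjusted p = 0.00742).

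HIBADH, which forms the substrate of ALDH6A1, fell by 0.63 on the log2 scale (edgeR adjusted p = 0.0244), a call lost without WT_1 (0.0770), WT_2 (0.0867) or WT_3 (0.0693). ACAD8, of valine breakdown, fell by 0.50 (adjusted p = 0.0165), a call lost without FT_3 (0.0527), WT_1 (0.0694) or WT_2 (0.0528). ACADSB, of isoleucine breakdown, fell by 0.50 (adjusted p = 0.0484), a call lost without FT_2 (0.110), FT_3 (0.128), WT_1 (0.139) or WT_3 (0.129). AOX1, the most abundant of the role, had FPKM values of 276, 82.4 and 78.3 in FT_1 to FT_3 and of 99.7, 86.4 and 111 in WT_1 to WT_3. In FPKM, FT_1 was above the WT range and FT_2 and FT_3 below it. In TMM-scaled log2 levels relative to the WT mean, FT_2 (-0.09) and FT_3 (-0.15) lay inside the WT range (-0.19 to 0.18). The AOX1 log2 fold change of 0.70 (95% interval -0.54 to 1.94) was not called and became -0.13 without FT_1. ABAT, low in all libraries, had 0.08, 0.79 and 0.56 in FT cells and 0.13, 0.27 and 0.15 in WT cells. It was not called, and without FT_1 its log2 fold change was 2.06 (adjusted p = 0.000593). MCCC1 (-0.36, and -0.11 without FT_1) and IVD (-0.08, and -0.02 without FT_1) were not called. AOX2 and AOX4, which fell in no role list, had at most 12 counts in a library, and reads of these near copies of AOX1 may be shared among them.

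Of 5 members of the propionyl-CoA route, which takes up end products of isoleucine, valine and odd-chain fatty acids, 4 fell and ACSF3 was not called. Among all genes tested, 18.9% fell. PCCB (ENSBTAG00000015221, chromosome 1, 132920382 to 133024359), a subunit of the propionyl-CoA carboxylase, had FPKM values of 5.96, 5.26 and 4.62 in FT_1 to FT_3 and of 15.7, 16.9 and 16.9 in WT_1 to WT_3. The FT values were similar and far below the WT values. Its log2 fold change was -1.49 (95% interval -1.74 to -1.23, edgeR adjusted p = 0.000687). MMUT, the vitamin B12-dependent mutase, had 7.16, 7.24 and 6.95 in FT cells and 11.2, 11.9 and 11.2 in WT cells, without overlap, and fell by 0.52 (adjusted p = 0.00265). MCEE, the epimerase between them, fell by 1.22 (adjusted p = 0.00410), and PCCA, the partner of PCCB, fell by 0.72 (adjusted p = 0.00333). PCCB and MMUT overlap genes on the other strand, STAG1 and CENPQ, so part of their counts may not be their own.

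Ratios between subunits of the same enzyme were compared in 4 pairs chosen after seeing the data, of which 2 had overlapping groups. The FPKM ratio of HADHA to HADHB was 3.28, 2.88 and 2.79 in FT_1 to FT_3 and 1.54, 1.55 and 1.74 in WT_1 to WT_3 (exact two-sided permutation p = 0.1). For PCCA to PCCB it was 1.09, 1.45 and 1.59 in FT cells and 0.878, 0.764 and 0.757 in WT cells (exact permutation p = 0.1). Neither ratio overlapped between the groups. For MCCC1 to MCCC2 it was 0.856, 1.88 and 1.82 in FT cells and 0.900, 0.830 and 0.792 in WT cells, with FT_1 inside the WT range (exact permutation p = 0.2). The ratio of BCKDHA to BCKDHB was 6.40, 1.42 and 1.61 in FT cells and 1.39, 1.23 and 1.45 in WT cells (exact permutation p = 0.2), and the difference between the means was 1.79 with FT_1 and 0.159 without it.

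**Figure D5:**
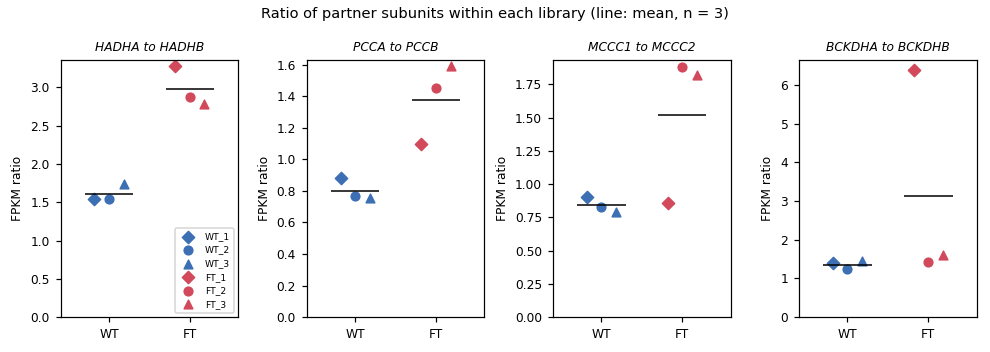
Ratio of the FPKM of partner subunits within each library (y axis), for HADHA to HADHB, PCCA to PCCB, MCCC1 to MCCC2 and BCKDHA to BCKDHB, with the mean of each group as a line (n = 3). FT and WT ratios are apart for HADHA to HADHB and PCCA to PCCB, whereas FT_1 lies at 0.856 for MCCC1 to MCCC2 and at 6.40 for BCKDHA to BCKDHB.

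Of the ketone body enzymes, OXCT1 and AACS did not pass edgeR at an adjusted p of 0.05, although in FPKM each FT value was below each WT value for both. In TMM-scaled log2 levels relative to the WT mean, FT_1 (-0.07) lay inside the WT range (-0.13 to 0.07) for AACS. OXCT1 had an unadjusted p of 0.0327 and AACS one of 0.108, and both passed in limma. OXCT1 (ENSBTAG00000033186, chromosome 20, 32667447 to 32834933), the transferase that lets tissues use acetoacetate, had FPKM values of 5.68, 33.3 and 40.6 in FT_1 to FT_3 and of 115, 98.9 and 110 in WT_1 to WT_3. FT_1 was far lower than FT_2 and FT_3, and all 3 were far below the WT values. The log2 fold change was -1.86 (95% interval -3.50 to -0.21, edgeR adjusted p = 0.0731) and without FT_1 it was -1.38 (adjusted p = 2.84e-06). AACS, which activates acetoacetate in the cytosol, had -0.19 (adjusted p = 0.183) and -0.25 without FT_1 (adjusted p = 0.0380).

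Genes that work beside the members but were not found by the rule came from 7 companion lists. Of 41 tested in edgeR, 14 fell, 5 rose and 22 were not called, with a median log2 fold change of -0.11. The 19 calls stood beside 39.0% of all genes called, and the 29 calls without FT_1 beside 62.1%. There were 11 calls without WT_1, 9 without WT_2 and 11 without WT_3, beside 22.1%, 23.0% and 25.5% of all genes. SLC25A20, the carrier of acylcarnitines into mitochondria, had FPKM values of 8.92, 8.34 and 7.81 in FT_1 to FT_3 and of 19.8, 21.2 and 20.1 in WT_1 to WT_3. The groups were far apart, and the log2 fold change was -1.13 (adjusted p = 0.000755). DECR1, which handles double bonds of unsaturated chains, had 4.31, 2.45 and 3.09 in FT cells and 13.8, 16.2 and 14.5 in WT cells, without overlap, and fell by 2.02 (95% interval -2.55 to -1.48, adjusted p = 0.00168). ETFDH, which passes electrons from the acyl-CoA dehydrogenases to the respiratory chain, fell by 0.84 (adjusted p = 0.00515). ETFA, a subunit of the electron carrier between them, fell by 0.75 (adjusted p = 0.0133), a call lost without WT_2 (0.0561).

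The peroxisomal genes PHYH and CROT fell 2.46-fold and 1.87-fold (edgeR adjusted p = 0.00220 and 0.00387). HSD17B4, of peroxisomal beta-oxidation, fell by 0.59 on the log2 scale (adjusted p = 0.0218), a call lost without WT_1 (0.0773), WT_2 (0.0697) or WT_3 (0.0726). ABCD3, a peroxisomal transporter gene, fell by 0.51 (adjusted p = 0.0237), a call lost without FT_2 (0.0623), WT_1 (0.0885), WT_2 (0.0839) or WT_3 (0.0515). ACAD9, an acyl-CoA dehydrogenase gene, fell by 0.69 (adjusted p = 0.0138), a call lost without WT_2 (0.0566). The thioesterase gene ACOT2 fell by 1.08 (adjusted p = 0.0267), a call lost without FT_3 (0.0800), WT_1 (0.0952), WT_2 (0.0950) or WT_3 (0.0522). A further 3 calls held without FT_1 and were lost without any other library. They were the fall of ACOT13 (adjusted p = 0.0356, then 0.0579 to 0.115), that of ACACB, whose product makes the malonyl-CoA that restrains CPT1 (0.0458, then 0.0968 to 0.143), and the rise of CRAT, a carnitine acetyltransferase gene (0.0288, then 0.0702 to 0.109). With all 6 libraries the CRAT call was also lost with total counts (log2 fold change 0.20 instead of 0.35, adjusted p = 0.111) and in limma (0.19, adjusted p = 0.114 to 0.116), and the ACOT13 call was lost with a length trend removed (-0.19 instead of -0.36, adjusted p = 0.195). The ACACB call was lost with no filter on low counts (adjusted p = 0.0524).

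Of 4 genes for the transport of branched-chain amino acids, SLC43A1 and SLC25A44 rose, and without FT_1 the other 2, SLC7A5 and SLC3A2, fell. Among all genes, 39.0% were called with all 6 libraries and 62.1% without FT_1. SLC43A1, a plasma membrane transporter of leucine and its relatives, had FPKM values of 19.9, 26.5 and 25.0 in FT_1 to FT_3 and of 4.38, 4.71 and 4.97 in WT_1 to WT_3. The FT values were well above the WT values, and the log2 fold change was 2.51 (95% interval 2.15 to 2.86, edgeR adjusted p = 0.000523). SLC25A44, which carries these amino acids into mitochondria, rose by 0.74 (adjusted p = 0.00257). BCKDK, the kinase gene of the keto acid dehydrogenase, was not called (0.20, and 0.10 without FT_1). PPM1K, its phosphatase gene, had 6.61, 28.2 and 28.9 in FT cells and 24.3, 23.0 and 27.5 in WT cells and was not called (log2 fold change -0.06, and 0.37 without FT_1, adjusted p = 0.00383). SLC7A5, a further transporter gene, had 44.0, 9.91 and 11.2 in FT cells and 18.1, 16.3 and 18.9 in WT cells and was not called (0.44, and -0.57 without FT_1, adjusted p = 0.000361). SLC3A2, the partner of SLC7A5, had 163, 71.4 and 87.2 in FT cells and 123, 124 and 138 in WT cells and was not called (-0.11, and -0.52 without FT_1, adjusted p = 0.00106).

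Among 10 genes of transcription factors and coactivators known to act on oxidation genes, 1 rose and 1 fell, and without FT_1 5 rose and 2 fell, where 39.0% and 62.1% of all genes were called. PPARD had FPKM values of 10.9, 12.4 and 12.7 in FT_1 to FT_3 and of 7.74, 6.64 and 7.32 in WT_1 to WT_3, without overlap, and it rose by 0.89 on the log2 scale (edgeR adjusted p = 0.00225). ESRRA fell by 0.32 (adjusted p = 0.0349), a call kept without FT_1 and lost without any other library (0.0777 to 0.110). PPARGC1A had 0.01, 1.78 and 1.45 in FT cells and 2.18, 1.73 and 1.92 in WT cells and was not called. PPARG had 2.02, 0.30 and 0.37 in FT cells and 1.24, 1.61 and 1.11 in WT cells, and its log2 fold change was -0.41 (adjusted p = 0.692) and -1.78 without FT_1 (adjusted p = 8.84e-05). KLF15 had a log2 fold change of 1.81 (adjusted p = 0.0607) and of 2.25 without FT_1 (adjusted p = 4.41e-05). Among cofactor genes of the propionyl-CoA route, MMADHC fell by 0.65 (adjusted p = 0.00292). MMACHC rose by 0.81 (adjusted p = 0.0361), a call lost without FT_3 (0.0851), WT_1 (0.118), WT_2 (0.0659) or WT_3 (0.117). It was also lost with all 6 libraries with total counts (log2 fold change 0.66, adjusted p = 0.0706) and in limma on log2(FPKM + 1) (0.50, adjusted p = 0.0504).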

How the data were processed

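RNA was measured in 6 libraries, 3 FT and 3 WT, read as 1 per fetus from their names. The authors state that reads were mapped with HISAT, transcripts were merged by Perl scripts, and StringTie and edgeR gave expression. The submitters' processing notes name HISAT2 2.0, StringTie 1.3.0 and Bowtie 0.12.2, and a mouse build, which cannot be that of a cattle table. The deposited table gave raw counts and FPKM values per gene and library, and the authors scaled FPKM by gene length and library total. Counting of overlapping genes or strand is not stated. The methods and the sample records differ on the sequencer and the RNA input.

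Counts were tested with edgeR 4.0.16 in R 4.3.3 (quasi-likelihood, TMM factors, filterByExpr, Benjamini-Hochberg adjustment over 13482 genes), the tool the methods name. A gene rose or fell at an adjusted p under 0.05. Intervals are 95% intervals derived from the fold change and its F statistic. limma 3.58.1 on log2(FPKM + 1), where the mean FPKM reached 0.5, and DESeq2 1.42.0 were alternatives, with other scalings, filters, a length trend, a replicate block and leaving out each library. On counts simulated for FT against WT with 200 genes changed 2-fold, edgeR recovered 200 among 13766 genes with 13 false calls, limma 200 among 12118 with 21 and DESeq2 200 among 11402 with 20. The spread between the simulated libraries is not given here, so these counts do not measure power in the real libraries.

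The named genes are, per role list, up to 2 members with the smallest p among those that rose and 2 among those that fell, and the member with the highest mean FPKM; any member may be named under its role, and any companion. Which of the others have values printed was chosen after seeing them. The members and lists were chosen with earlier results of these data known. ACSL4, planned for a share, was not analysed here, and ACSL1, ACSL3 and ACSL5 shares were used after seeing the data.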

Additional observations from a re-analysis of the deposited data

How the results depend on the processing

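Of the 25 members called, 16 kept their call and direction under every alternative fit and none reversed. The other 9 (ACAD8, ACADM, ACADSB, ACADVL, BCKDHB, CPT1A, ECI2, HADHA and HIBADH) lost the call in at least 1, mostly when 1 library was left out, where fewer samples were fitted. With all 6 libraries and no block, CPT1A, ACADSB, BCKDHB and ECI2 lost it without the filter on low counts (adjusted p = 0.0551 to 0.0617), ACADSB and BCKDHB with a length trend removed (0.0658 and 0.0643) and ECI2 with median-ratio factors (0.0501). The number of members higher in FT was 2 with DESeq2 and ranged from 1 to 4 with each library left out. The number lower ranged from 15 to 33, and was 7 at the threshold of the methods. With the replicate number as a block, 18 members were lower and 1 was higher, and 12 companion genes were called. In that fit CPT1A, ACADSB, BCKDHB, ACADM, ECI2 and HADHA lost the call (adjusted p = 0.0612 to 0.109). The numbers are shared by different fetuses, and same-number deviations correlated at -0.001, -0.020 and 0.018, none above 0.1, so libraries were not paired. Companion calls ranged from 9 to 29 with each library left out and were 6 at the threshold of the methods. The members' median log2 fold change was -0.624 with total counts, -0.601 in limma on log2(FPKM + 1) and -0.660 in limma on log2(FPKM + 0.1). With total counts, 37.6% of all called genes were higher in FT, against 51.6% with TMM.

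Among the genes named, reversals were found in those not called, and the cause was not tested. In limma on log2(FPKM + 1), with and without the filter, the log2 fold change was -0.048 for ACSL6, -0.128 for BCKDHA, -0.116 for ACADL and -0.041 for SLC7A5, and in limma on log2(FPKM + 0.1) it was -0.525, -0.141, -0.161 and -0.057, in that order. With the replicate block it was -0.768 for ACSL6 and -0.015 for ACADL. With each library left out in turn, log2 fold changes ranged from -1.924 to 0.828 for ACSL6, -0.055 to 0.546 for ACSL5, -0.312 to 0.928 for CPT1C, -0.132 to 0.994 for AOX1, -0.401 to 0.364 for BCKDHA, -0.549 to 0.514 for ACADL, -0.205 to 0.052 for ACSF3, -0.363 to 0.366 for PPM1K, -0.575 to 0.781 for SLC7A5, -0.522 to 0.110 for SLC3A2, -0.208 to 0.113 for DECR2 and -0.393 to 0.677 for AMACR, which was called without FT_1 (adjusted p = 0.0147). The ACSL5 share, FT minus WT, ranged from -1.57 to 6.39 percentage points. Counts of low genes, such as CPT1B, ABAT and ACSL6, limit the precision of their fold changes.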
